A study of Mus musculus with 2 samples.

Results

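The let-7 family with Mir98 is a set of 10 microRNA genes, taken by GENCODE gene name from the 1973 microRNA genes in the tables. Read counts per microRNA gene came from small RNA (under 30 bases) of lungs of mouse embryos of the B6NCrl strain at embryonic day 16.5, healthy and without any named treatment. The samples form 1 group of 2 biological replicates, each a pool of lungs from male and female embryos. Replicate 2 pooled 41 embryos; for replicate 1 the labels give no number of embryos. Mirlet7e and Mirlet7f-1 were not analysed under their own names. Gene counts totalled 6376715 in replicate 1 and 4123748 in replicate 2, and a gene without any count could still have had up to 0.470 CPM (counts per 1000000 gene counts) in replicate 1 and 0.727 CPM in replicate 2. Because whole lungs were pooled, fewer cells of a type and less RNA per cell cannot be told apart.

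MicroRNAs of the let-7 family are short RNAs cut from hairpin precursors that repress messenger RNAs by pairing through their seed, the bases near the 5′ end. The family was first found as timing genes in Caenorhabditis elegans, and in mammals it accumulates as cells leave the proliferating, undifferentiated state. The RNA-binding protein LIN28 blocks maturation of let-7 precursors, and HMGA2 and RAS genes are among the known targets. In lung, let-7 is best known for restraining growth in tumours.

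The mature sequences show why these genes count as 1 family and how little separates them, so they are printed here from RefSeq (build GRCm38.p6), 5′ to 3′, with the seed (bases 2 to 8) in capitals. All 10 hairpins were found in RefSeq and were identical to those of GENCODE M21.
let-7a (Mirlet7a-1 and Mirlet7a-2): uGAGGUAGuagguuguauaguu
let-7b (Mirlet7b): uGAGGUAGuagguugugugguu
let-7c (Mirlet7c-1 and Mirlet7c-2): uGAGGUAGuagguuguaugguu
let-7d (Mirlet7d): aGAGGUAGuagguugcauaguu
let-7f (Mirlet7f-2): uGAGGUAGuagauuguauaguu
let-7g (Mirlet7g): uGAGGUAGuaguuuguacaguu
let-7i (Mirlet7i): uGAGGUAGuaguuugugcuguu
miR-98 (Mir98): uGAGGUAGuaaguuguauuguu

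All 10 genes carry the seed GAGGUAG, and differences from let-7a lie outside it. Counting from 1 at the 5′ end, with the base of let-7a first, let-7c differs from let-7a by A19G and let-7f by G12A. Let-7b differs by A17G and A19G, let-7d by U1A and U16C, let-7g by G12U and U18C, and miR-98 by G11A and A19U. Let-7i is the most distant, with G12U, A17G, U18C and A19U.

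Most of the reads counted for these 10 genes came from a few of them. Mirlet7g and Mirlet7i were the highest, Mirlet7d was next, and Mirlet7c-1 was the lowest. All 10 members reached the detection threshold of 10 counts in each library, against 17.6% of all 1973 genes. The family held 17.0% of gene counts in replicate 1 (95% exact interval 16.99 to 17.04%) and 15.6% in replicate 2 (15.55 to 15.6%), a mean of 16.3% ± 1.01 (SD, n = 2). The 3 highest genes made up 87.3% of the family's counts in replicate 1 and 86.9% in replicate 2. Between the highest and the lowest gene lay a 395-fold difference in replicate 1 and a 398-fold difference in replicate 2. These are differences in counted reads, which leave out reads that match several loci.

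Mirlet7g had 64351 CPM in replicate 1 and 61050 CPM in replicate 2, a mean of 62700 ± 2333 (SD, n = 2) and 37.8% and 39.2% of the family's counts in that order. Mirlet7i had 64202 CPM in replicate 1 and 54563 CPM in replicate 2, a mean of 59382 ± 6815 (SD, n = 2) and 37.7% and 35.0% of the family's counts. These genes were level in replicate 1, where the ratio of Mirlet7g to Mirlet7i counts was 1.00 (95% exact interval 0.998 to 1.01), while in replicate 2 the ratio was 1.12 (1.11 to 1.13). Their ranges over the libraries overlap, so their order is not resolved by 2 libraries. Both lie alone, with no other microRNA gene within 10 kb. Mirlet7g lies in an intron of Wdr82, which encodes a subunit of a histone methyltransferase complex (ENSMUSG00000065440.1; mm10, chromosome 9, 106178840 to 106178927, plus strand). Mirlet7i overlaps an exon of the transcribed pseudogene D630033A02Rik (ENSMUSG00000065406.2; chromosome 10, 122985640 to 122985724, minus strand).

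Mirlet7d (ENSMUSG00000065453.1) had 19951 CPM in replicate 1 and 19828 CPM in replicate 2, a mean of 19889 ± 86.8. Mir98 (ENSMUSG00000065536.2) had 10789 CPM in replicate 1 and 9474 CPM in replicate 2, a mean of 10131 ± 929.9. Mirlet7b (ENSMUSG00000065564.1) had 5623 CPM in replicate 1 and 6008 CPM in replicate 2, a mean of 5815 ± 272 (SD, n = 2 each). None of these ranges overlapped, and the order of the 3 genes was the same in both libraries. The step from Mirlet7i down to Mirlet7d was 2.99-fold by the means, that from Mirlet7d to Mir98 was 1.96-fold, and that from Mir98 to Mirlet7b was 1.74-fold. Mirlet7f-2 (ENSMUSG00000065602.1) followed with 4373 CPM in replicate 1 and 4167 CPM in replicate 2, a mean of 4270 ± 146 (SD, n = 2).

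A gap of 15.9-fold by the means separated Mirlet7f-2 from the last 4 genes. Mirlet7a-1 (ENSMUSG00000065421.2) had 283 CPM in replicate 1 and 253 CPM in replicate 2. Mirlet7a-2 (ENSMUSG00000092770.1) had 227 CPM in replicate 1 and 178 CPM in replicate 2. Their ranges did not overlap, and Mirlet7a-1 was the higher in both libraries. Mirlet7c-2 (ENSMUSG00000065608.1) had 195 CPM in replicate 1 and 188 CPM in replicate 2. Mirlet7c-1 (ENSMUSG00000065557.2) had 163 CPM in replicate 1 and 154 CPM in replicate 2. Mirlet7a-2 and Mirlet7c-2 changed places between the libraries and are not told apart, and Mirlet7c-1 was the lowest in both. Of the 9 neighbouring pairs in the order of the means, Mirlet7g with Mirlet7i and Mirlet7a-2 with Mirlet7c-2 are thus the only ones with overlapping ranges.

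**Figure D1:**
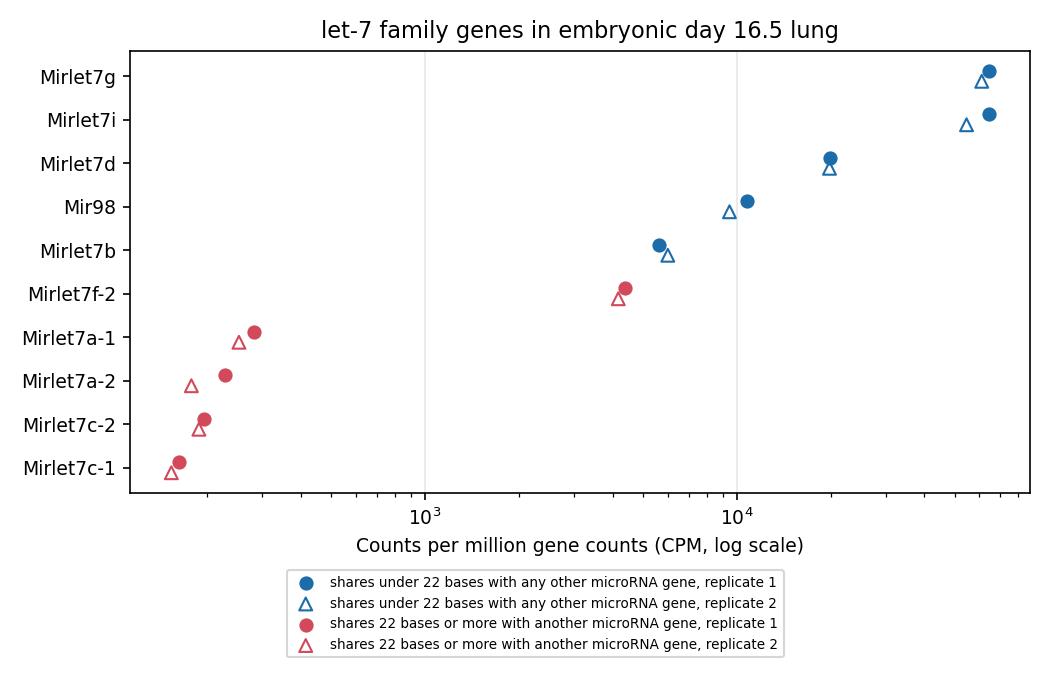
Level of each family gene in CPM (log axis) in replicate 1 (filled circles) and replicate 2 (open triangles), with genes that share a run of 22 bases with another microRNA gene in red. The 4 genes for let-7a and let-7c lie between 154 and 283 CPM, and all other members lie at 4167 CPM or above.

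Among all microRNA genes the family spans ranks 4 (Mirlet7g) to 180 (Mirlet7c-1) by mean level. Genes next to the members in level were Mir143, above Mirlet7g at 71247 CPM ± 1447, and Mir335, below Mirlet7i at 50501 CPM ± 1627 (SD, n = 2 each). Mirlet7d stood between Mir10a and Mir17, Mir98 between Mir200c and Mir411, Mirlet7b between Mir151 and Mir200b, and Mirlet7f-2 between Mir15a and Mir181c. With 2 libraries, likeness of expression across samples could not be measured.

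The levels were then set against sequence shared between genes. In the tables, reads that match several loci are listed on a line of their own, 29.97% of all reads in replicate 1 and 31.8% in replicate 2, and are not given to any gene. How many of them came from let-7 was not measured, so the levels of genes with copies are levels of counted reads only. The longest run of bases shared with any other microRNA hairpin was 14 for Mirlet7d, 17 for Mir98 and 19 for Mirlet7b, Mirlet7g and Mirlet7i. It was 22 for Mirlet7f-2, 23 for Mirlet7a-2 and Mirlet7c-1, and 26 for Mirlet7a-1 and Mirlet7c-2.

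The 5 members sharing fewer than 22 bases had a median of 19951 CPM in replicate 1 and 19828 CPM in replicate 2. For the 5 members sharing 22 bases or more, the median was 227 CPM in replicate 1 and 188 CPM in replicate 2. The ratio of these medians was 87.7 in replicate 1 and 105 in replicate 2, a mean of 96.6 ± 12.5 (SD, n = 2), and the groups did not overlap in either library. The copied members together held 3.08% of the family's counts in replicate 1 and 3.17% in replicate 2. The ratio rests on where the limit is set. It was 34.7 at 25 shared bases, which leaves Mirlet7a-1 and Mirlet7c-2 as copied, and 6.62 at 18 bases, which leaves Mirlet7d and Mir98 as single.

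**Figure D2:**
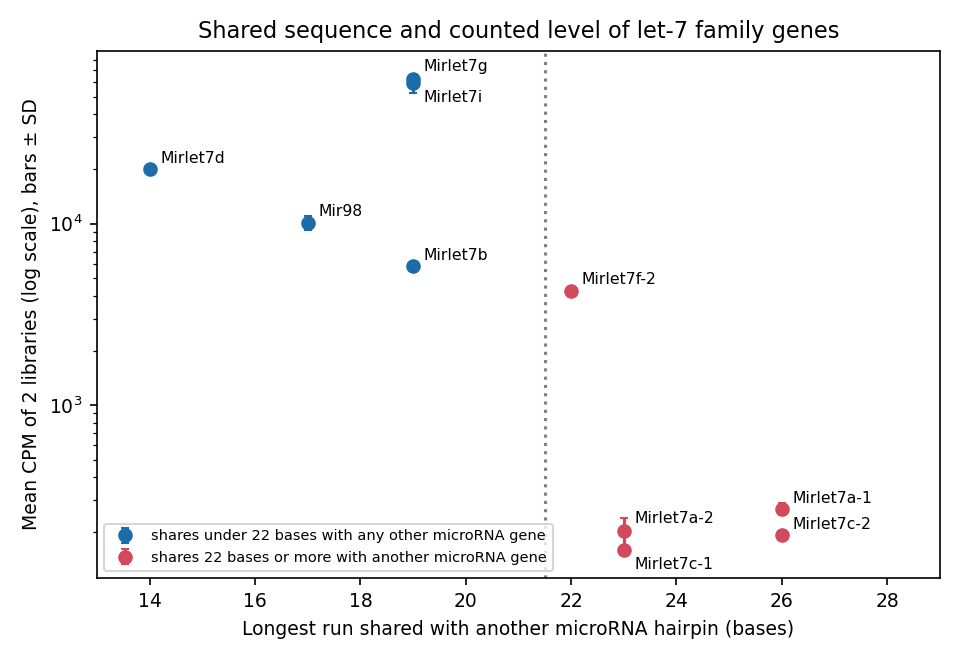
Mean CPM of each family gene (log axis, bars show ± SD over 2 libraries) against the longest run of bases its hairpin shares with another microRNA hairpin, with the limit of 22 bases dotted. Members with runs of 14 to 19 bases have means of 5815 CPM or above, Mirlet7f-2 with 22 bases has 4270 CPM, and members with 23 or 26 bases have 268 CPM or less. The run of 26 bases is the one Mirlet7a-1 and Mirlet7c-2 share with each other. Mirlet7f-1, which shares the 22 bases of Mirlet7f-2, is not plotted. Its strand, counted under another name, had 261 CPM in replicate 1 and 216 CPM in replicate 2.

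Over all genes with a hairpin the same split is also seen in detection, with 27.9% of 1023 single genes and 7.12% of 871 copied genes detected. The medians of the detected genes were 222 CPM for single and 56.0 CPM for copied genes in replicate 1, and 226 CPM for single and 52.4 CPM for copied genes in replicate 2. In the miR-30 family the ratio of the medians was 203 in replicate 1 and 208 in replicate 2 (4 single, 2 copied genes). In the miR-99/100 and miR-125 genes it was 34.5 in replicate 1 and 37.7 in replicate 2 (4 single, 2 copied genes). These ratios describe the genes, which are not replicates, and were not tested.

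The copies differ in how much of the hairpin they share, so the 3 copied mature sequences are shown with 5 bases of their precursor on each side (lower case, RefSeq GRCm38.p6; capitals mark the mature microRNA).
Mirlet7a-1, chromosome 13: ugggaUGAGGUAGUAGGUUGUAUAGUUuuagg
Mirlet7a-2, chromosome 9: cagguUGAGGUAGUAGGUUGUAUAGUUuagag
Mirlet7c-1, chromosome 16: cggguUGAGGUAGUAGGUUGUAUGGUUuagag
Mirlet7c-2, chromosome 15: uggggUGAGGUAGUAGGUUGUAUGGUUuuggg
Mirlet7f-2, chromosome X: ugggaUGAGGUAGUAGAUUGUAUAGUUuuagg
Mirlet7f-1, chromosome 13: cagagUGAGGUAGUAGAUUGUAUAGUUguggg

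For let-7f the copies part at the first base on either side of the mature sequence, so the shared run is the 22 bases of let-7f itself. For let-7a and for let-7c the copies share 1 further base at the 3′ end, a run of 23 bases. The opposite arms of the hairpins (3p) are shared as well in 1 case: Mirlet7a-1 and Mirlet7c-2 have an identical 3p sequence, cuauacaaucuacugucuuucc, so neither gene has an arm of its own. Mirlet7a-2, Mirlet7c-1 and Mirlet7f-2 each have a 3p sequence found in no other hairpin of the table. Counts per gene do not separate the arms. Of the let-7a genes, Mirlet7a-1, with no arm of its own, averaged 268 CPM ± 21.2 and Mirlet7a-2 203 ± 34.9. Of the let-7c genes, Mirlet7c-2, with no arm of its own, averaged 192 CPM ± 4.99 and Mirlet7c-1 158 ± 6.67 (SD, n = 2 each). These genes lie at different loci, and whether a shared 3p arm bears on their levels was not tested.

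Another sequence feature of the precursors is GGAG, the motif that LIN28 binds in the let-7 loop. It was searched on the strand of the precursor only. It lies between the arms in 7 of the 10 members, and these letters are not in the hairpins of Mirlet7b, Mirlet7c-2 and Mir98. Of all 1005 RefSeq microRNA hairpins in the table, 44.5% hold GGAG anywhere. Members with and without these letters were found among both the high and the low genes, and LIN28 itself was not measured.

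Members that share a primary transcript were compared next, within each library. Mirlet7d and Mirlet7a-1 overlap exons of the lincRNA 6720427I07Rik, 2064 bases apart with Mirlet7f-1 between them, on the minus strand of chromosome 13 (48536012 to 48536114 and 48538179 to 48538272). The ratio of Mirlet7d to Mirlet7a-1 was 70.5 in replicate 1 (95% exact interval 67.3 to 73.9) and 78.4 in replicate 2 (73.7 to 83.4). Mirlet7b and Mirlet7c-2 overlap exons of Lncppara, 621 bases apart on the plus strand of chromosome 15 (85707319 to 85707403 and 85706603 to 85706697). Mirlet7b was 28.8-fold above Mirlet7c-2 in replicate 1 (27.2 to 30.5) and 31.9-fold in replicate 2 (29.7 to 34.3). In both pairs the gene with copies was the low one.

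Of the 3 pairs of family members, the pair on chromosome X was the most even. Mir98 and Mirlet7f-2 lie 785 bases apart on the plus strand in an intron of Huwe1, which encodes a ubiquitin ligase (151913214 to 151913321 and 151912346 to 151912428). Mir98 was 2.47-fold above Mirlet7f-2 in replicate 1 (2.43 to 2.50) and 2.27-fold in replicate 2 (2.23 to 2.31). Mirlet7f-2 shares no base beyond the mature sequence with its copy Mirlet7f-1, and the same holds for Mirlet7f-1. Yet the Mirlet7f-1 strand, counted under another name, had 261 CPM in replicate 1 and 216 CPM in replicate 2. Its neighbour Mirlet7d had 19951 CPM in replicate 1 and 19828 CPM in replicate 2. Whether the length of the shared run bears on the ratios within a locus was not tested.

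The remaining members lie in 3-gene loci with a miR-99 or miR-100 gene upstream and a miR-125b gene downstream. Mirlet7c-1 (chromosome 16, 77599657 to 77599750, plus strand) lies in an intron of the non-coding gene Mir99ahg. Mirlet7c-1 was 207-fold below Mir99a, 656 bases away, in replicate 1 (195 to 220) and 242-fold below in replicate 2 (224 to 262). Against Mir125b-2, whose sequence also has a copy, it was 1.98-fold lower in replicate 1 (1.84 to 2.14) and 2.05-fold lower in replicate 2 (1.86 to 2.26). Mirlet7a-2 (chromosome 9, 41536716 to 41536811, plus strand) lies in introns of the non-coding genes 3110039I08Rik and Gm49317. It was 12.03-fold below Mir100 in replicate 1 (11.4 to 12.7) and 17.9-fold below in replicate 2 (16.6 to 19.3). Against Mir125b-1, a gene with a copy, the ratio of Mirlet7a-2 was 1.31 in replicate 1 (1.21 to 1.42) but 0.895 in replicate 2 (0.809 to 0.990), so the order of these genes differed between the libraries.

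**Figure D3:**
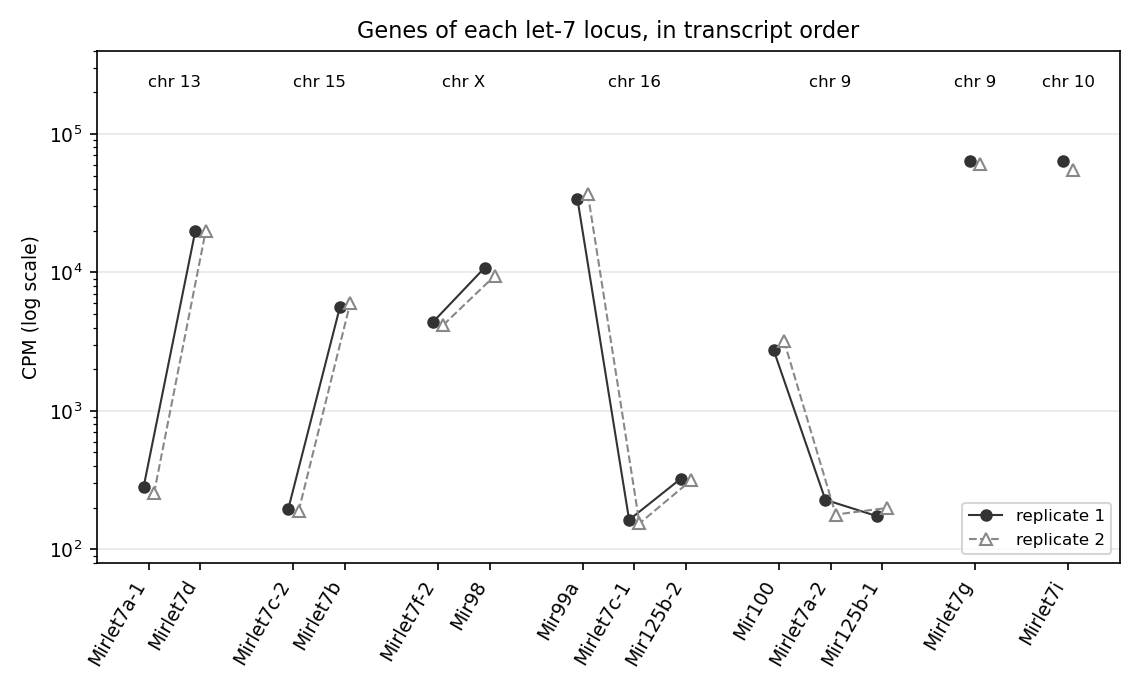
CPM (log axis) of the genes of each let-7 locus, from the 5′ to the 3′ end of the shared strand, in replicate 1 (filled circles, solid lines) and replicate 2 (open triangles, dashed lines). Mir98 and Mirlet7f-2 lie about 2-fold apart, and in each other locus with a copied let-7 gene, that gene lies far below Mirlet7d, Mirlet7b, Mir99a or Mir100. Mirlet7c-1 lies about 2-fold below Mir125b-2, and Mirlet7a-2 lies above Mir125b-1 in replicate 1 and below it in replicate 2. Mirlet7f-1 of the chromosome 13 locus is not plotted.

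The libraries differed little in let-7 content, and mostly in 1 direction. Each gene's counts were set against both library totals in a two-sided exact binomial test, with p-values adjusted (Benjamini-Hochberg) over the 347 detected genes. By this test 6 of 10 members were higher in replicate 1, against 16.4% of all detected genes. In the other direction 1 of 10 was higher in replicate 2, against 30.5%. The test weighs counting error alone and compares these libraries, not conditions. It calls smaller folds where counts are higher: Mirlet7g was called at 1.05-fold, while Mirlet7c-1 at 1.06-fold was not. The members include some of the highest genes, so the shares of all detected genes were not matched to them in count. No member differed by 1.5-fold or more, as 33 of the 347 detected genes did. The median log2 fold of replicate 1 over replicate 2 was 0.08 for the members and -0.05 for all detected genes. With edgeR's TMM factors the counts were 7 and 1 among the members and 78 and 75 among all detected genes, in place of 57 and 106. DESeq2's size factors gave 7 and 1 among the members and 76 and 80 among all. Mirlet7d was the member added in both (log2 fold 0.06 and 0.05).

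Mirlet7i was 1.18-fold higher in replicate 1 (95% exact interval 1.17 to 1.18), and Mir98 1.14-fold higher (1.12 to 1.15, adjusted p = 3.1e-93). Mirlet7g was 1.05-fold higher (1.05 to 1.06, adjusted p = 4.7e-95) and Mirlet7f-2 1.05-fold higher (1.03 to 1.07, adjusted p = 2.8e-06). The largest fold was that of Mirlet7a-2, at 1.28 (1.17 to 1.40, adjusted p = 2.2e-07), followed among the copied genes by Mirlet7a-1 at 1.12 (1.04 to 1.21, adjusted p = 0.010). Mirlet7b was the gene higher in replicate 2, with a fold of replicate 1 over replicate 2 of 0.936 (0.921 to 0.951, adjusted p = 7.8e-15). Mirlet7d (1.01, 0.997 to 1.02), Mirlet7c-1 (1.06, 0.961 to 1.17) and Mirlet7c-2 (1.04, 0.948 to 1.14) were not called. All adjusted p-values are from the exact binomial test.

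Genes of 1 locus did not always go the same way. Mirlet7a-2 was higher in replicate 1 while Mir100 was lower there, at 2736 CPM in replicate 1 and 3190 CPM in replicate 2 (fold 0.858, 0.838 to 0.877). In the miR-99/100 and miR-125 genes, 5 of 6 were called higher in replicate 2 and 0 higher in replicate 1, although 3 of 6 with TMM factors. In the miR-30 family 2 of 6 were called in each direction, although 3 higher in replicate 1 and 1 higher in replicate 2 with TMM factors. Whether the families differ in this was not tested.

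**Figure D4:**
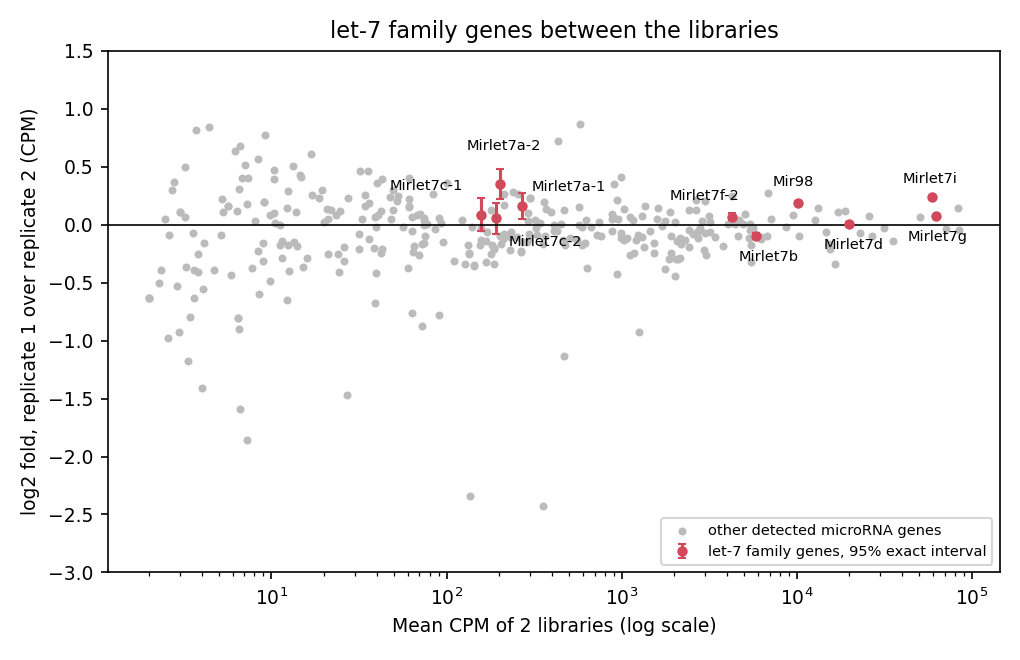
Log2 fold of replicate 1 over replicate 2 in CPM against mean CPM (log axis) for the family genes (red, bars show the 95% exact interval) and the other detected genes (grey). The family genes lie between -0.10 and 0.35, most of them just above 0.

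The labelled tissue was checked against microRNAs typical of lung cells. The 9 markers of endothelium, epithelium, mesenchyme and multiciliated cells were all detected, from 941 CPM ± 196 for Mir34c to 83199 CPM ± 5768 for Mir126a (SD, n = 2 each). Of 7 markers of other tissues or blood, 5 were detected and the neuronal genes Mir9-2 and Mir124a-1, both with sequence copies, had 0 counts in both libraries. Mir9-3, which was not on the marker list, had 3 counts in replicate 1 and 14 in replicate 2. Markers of both kinds differed between the libraries along with the let-7 genes. Endothelial Mir126a was 1.10-fold higher in replicate 1 (95% exact interval 1.10 to 1.11), with 87277 CPM in replicate 1 and 79120 CPM in replicate 2. The multiciliated cell markers were higher in replicate 2: Mir449a had 14580 CPM in replicate 1 and 18445 CPM in replicate 2 (fold 0.790, 0.783 to 0.798), and Mir34c had 803 CPM in replicate 1 and 1080 CPM in replicate 2 (fold 0.743, 0.714 to 0.774). The other 6 lung markers had folds of replicate 1 over replicate 2 from 0.923 (Mir145a) to 1.03 (Mir140). Mir122 of liver had 111 CPM in replicate 1 and 601 CPM in replicate 2, and Mir206 of skeletal muscle had 294 CPM in replicate 1 and 643 CPM in replicate 2. Mir208a of heart had 536 CPM in replicate 1 and 324 CPM in replicate 2, and Mir451a of red cells had 747 CPM in replicate 1 and 408 CPM in replicate 2. Mir223 of myeloid cells had 697 CPM in replicate 1 and 740 CPM in replicate 2. Their part in the let-7 differences was not tested.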

How the data were processed

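Small RNA of 2 libraries was measured. The deposited values are raw read counts per microRNA gene on assembly mm10 with GENCODE M4, made from aligned reads per the file headers. Neither the labels nor the headers used here name an aligner, a counting program or a trimming step. The count column without strand was used, which equals the sum of the strand columns in all 1973 genes, and the lines for unmapped, multi-locus and outside-gene reads stayed out of totals.

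CPM was computed by scaling gene counts to 1000000. Symbols, positions (1-based) and hosts came from GENCODE M21 on the same build, with 1894 of 1973 identifiers matched, and sequences from RefSeq GRCm38.p6. RefSeq lists the let-7a mature sequence under Mirlet7a-1, and it was found in the hairpin of Mirlet7a-2 by search. Copies were hairpins sharing 22 bases on the same strand. Intervals are exact Clopper-Pearson at 95%, and a count of 0 was taken to allow 3 counts. Both hold only counting error, because PCR reads lacking molecular identifiers need not be separate molecules. The strand column holding nearly all counts was read as the gene's own strand, with 2.64% of gene counts in replicate 1 and 2.71% in replicate 2 opposite to it.

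Libraries were compared gene by gene with the exact conditional binomial test. The test was tried on simulated counts holding counting error only, which it assumes, so that trial cannot show how it does with other differences between libraries. edgeR 4.0.16 (TMM) and DESeq2 1.42.0 gave other scalings, in R 4.3.3 and Python 3.11.15 with scipy 1.17.1. Genes named are the members, genes of their loci, other genes of the let-7 seed, the miR-30, miR-99, miR-100 and miR-125 genes, the markers, Mir9-3 and the next genes in level. Members and lists were chosen with earlier results of these data known.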

Additional observations from a re-analysis of the deposited data

Results flagged for a closer look

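Counts on the strand of 2 further let-7 genes appear in the tables under other names. Mirlet7e and Mirlet7f-1 were not analysed above as members of the family. Genes annotated on the opposite strand of both loci are listed, and nearly all of their counts lie on the strand opposite to them, which is that of let-7. Positions are those of GENCODE M21, while the counts were made with M4 intervals, which were not used here, so the match of these counts to let-7 rests on the M21 positions. The strand counts of both loci are shown because no family share or member level above includes them and they exceed the 3 counts that a count of 0 allows. They are part of the gene totals, and the genes they are listed under are among the detected genes that were tested.

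Gm25927 (mm10, chromosome 17, 17830343 to 17830459, minus strand) covers Mirlet7e (17830352 to 17830444, plus strand), which lies between Mir99b and Mir125a. It had 31677 opposite-strand counts in replicate 1 and 20422 in replicate 2, and 0 on its own strand in both. This is 4968 CPM in replicate 1 and 4952 CPM in replicate 2, a level between those of Mirlet7b and Mirlet7f-2. Mirlet7e has a mature sequence found in no other hairpin, shown with the seed in capitals to set beside the family above.
let-7e (Mirlet7e): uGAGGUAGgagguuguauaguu

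Gm24111 (chromosome 13, 48537825 to 48537921, plus strand) covers Mirlet7f-1 (48537829 to 48537917, minus strand), which lies between Mirlet7a-1 and Mirlet7d. Its opposite-strand counts were 1665 in replicate 1 and 889 in replicate 2, against 4 and 0 on its own strand in that order. This is 261 CPM in replicate 1 and 216 CPM in replicate 2, near Mirlet7a-1, while Mirlet7f-2 with the same mature sequence had 4373 CPM in replicate 1 and 4167 CPM in replicate 2. Mirlet7b had 16 counts in replicate 1 and 19 in replicate 2 on the strand opposite to it. Among the other members only Mir98 had any, 1 count in each library.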

How the results depend on the processing

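The family's share kept within the spread between the libraries with sense-strand counts. It also did so, added after seeing the data, with the single-copy members alone (15.8%) or with the strands of Mirlet7e and Mirlet7f-1 included (16.8%). Leaving out the copied members could change the share little, as they held 3.08% of the family's counts in replicate 1 and 3.17% in replicate 2. The share was 17.8% without Mir322 and 8.02% of all reads in the tables, since these change the total. The ratio of single to copied members was 6.62 at 18 shared bases and 34.7 at 25, which change the groups. The detected members numbered 10 under every count minimum (5, 10 or 50), with sense-strand counts and in each library alone. Calls between the libraries stayed at 6 and 1, or 7 and 1 with TMM, DESeq2 or detected-gene size factors, the last added after seeing the data. No member's called direction turned. With either library left out, the share ran from 15.6 to 17.0% and the ratio of single to copied members from 87.7 to 105, and of the 7 ratios between genes of 1 locus only that of Mirlet7a-2 to Mir125b-1 changed sides, from -0.16 to 0.39 on the log2 scale. Mirlet7a-2 and Mirlet7c-2, of different loci, also changed places. No paired analysis was possible because the libraries form 1 group. Counting error is widest for the 4 lowest members, whose counts run from 633 to 1804. The let-7 part of the multi-locus reads was not measured.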

Other observations

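Apart from Mirlet7e and Mirlet7f-1, given above, other genes with a let-7 name or seed were low. Mir7j, whose RefSeq mature sequence is named let-7j, had 113 CPM in replicate 1 and 87.8 CPM in replicate 2, below all 10 members of the family. Its fold of replicate 1 over replicate 2 was 1.29 (95% exact interval 1.13 to 1.46). Its sequence shows that the seed is not that of let-7, since the last seed base is U, and miR-202 (Mir202) has this seed too. Apart from that base, let-7j begins with the whole sequence of let-7i. Whether reads of let-7i were counted under Mir7j was not tested.
let-7j (Mir7j, chromosome 3): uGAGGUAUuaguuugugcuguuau
miR-202-3p (Mir202, chromosome 7): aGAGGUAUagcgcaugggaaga

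Mir202 had 3 counts in replicate 1 and 1 in replicate 2. Mir7k, whose mature sequence let-7k has the let-7 seed, had 1 count in each library. A search of the RefSeq mature sequences for GAGGUAG at bases 2 to 8 also found Mir1961, which was not on any list before the search and had 0 counts in both libraries.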
